A study of Homo sapiens with 480 samples.

Results

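HOX genes encode homeodomain transcription factors that give cells their position along the body axis and the limbs. In humans they lie in 4 clusters, HOXA on chromosome 7, HOXB on chromosome 17, HOXC on chromosome 12 and HOXD on chromosome 2. Their order along the cluster matches where they act: anterior paralogue groups pattern the hindbrain and neck, posterior groups the lower trunk, the distal limbs and the genital tract. Adult fibroblasts keep the HOX pattern of the site they were taken from, whereas pluripotent cells hold the clusters largely silent under Polycomb marks and switch the anterior genes on first in response to retinoic acid. The HOX cluster genes were taken as every gene whose symbol is HOX, a letter A to D and a number, which gave 39 of the 27021 genes listed, with 11 in HOXA, 10 in HOXB, 9 in HOXC and 9 in HOXD. Paralogue groups 1 to 4 are called anterior, 5 to 8 central and 9 to 13 posterior.

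The members were followed in 480 single cells of BJ, an established line of neonatal human foreskin fibroblasts, during reprogramming. There were 96 cells in each of 5 groups: BJ cells without added factors (wild type), BJ cells 2 days and 8 days after virally delivered OSKM (MYC, KLF4, SOX2 and OCT4) had been induced, and day 16 cells of the same induction that a sort for TRA-1-60, a surface epitope of pluripotent cells, split by sign. The day 16 cells are called the positive and the negative fraction. All groups descend from the same line, every group but BJ carries the same factors, and no label tells of replicate cultures, so a group counts as 1 sample and no test was made from its cells. The deposited values are FPKM, which are per transcript length, and they were rescaled to a total of 1000000 per cell. Level below means this rescaled FPKM, averaged over the kept cells of a group. The 5 groups were deposited as separate tables, and whether these were normalized together is not stated, which bears on every level set across groups. A gene was detected in a cell at a level of 1 or more, and shares of cells carry exact Clopper-Pearson 95% intervals that cover counting error only.

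After a filter on detected genes, 92 BJ, 96 day 2, 92 day 8, 95 positive and 85 negative cells were kept. Median genes detected per cell lay between 5678 and 5915, and the share of shallow cells differed: 32 of 95 positive cells had fewer than 4000 genes, against 3 to 15 cells in the other groups. The labels were checked against 15 fibroblast and 15 pluripotency markers. The median summed fibroblast marker level was 1724 for positive and 16233 for negative cells, and between 15728 and 16573 in the other groups. Single fibroblast markers moved where this sum did not. Their median log2 ratio over BJ cells, defined below, was -0.99 at day 2 and -1.66 at day 8. It was -3.58 in positive and 0.87 in negative cells. The median summed pluripotency marker level was 4071 for positive and 135 for negative cells, against 0.324 before induction, 58.6 at day 2 and 151 at day 8. FPKM are not counts and the depth per cell is unknown, so a gene at 0 is only listed at 0.

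Upstream sequences are shown for 3 members whose means follow different courses, HOXA10, HOXD1 and HOXD11. HOXA10 was the leading HOX gene of BJ cells. HOXD1 was at or near 0 in BJ cells and high in part of the later cells. HOXD11 had a lower mean at day 2 and day 8 than in BJ cells or at day 16. The sequences are from RefSeq (GRCh38.p14), 5′ to 3′ on the gene's strand. They end at an annotated start or, for HOXD1, where a longer annotated transcript begins. HOXA10 is at chr7:27174321-27174570 on the minus strand, HOXD1 at chr2:176188418-176188578 on the plus strand and HOXD11 at chr2:176107030-176107279 on the plus strand. Capitals mark a match to TGATNNAT, the composite site that PBX and HOX proteins can bind together.
HOXA10: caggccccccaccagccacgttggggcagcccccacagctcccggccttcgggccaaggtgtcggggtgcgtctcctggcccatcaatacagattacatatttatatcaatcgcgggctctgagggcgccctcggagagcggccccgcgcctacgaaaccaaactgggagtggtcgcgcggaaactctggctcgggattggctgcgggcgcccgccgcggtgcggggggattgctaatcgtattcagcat
HOXD1: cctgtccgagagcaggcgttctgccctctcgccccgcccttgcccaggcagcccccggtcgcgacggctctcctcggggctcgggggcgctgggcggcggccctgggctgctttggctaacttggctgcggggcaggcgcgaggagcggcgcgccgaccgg
HOXD11: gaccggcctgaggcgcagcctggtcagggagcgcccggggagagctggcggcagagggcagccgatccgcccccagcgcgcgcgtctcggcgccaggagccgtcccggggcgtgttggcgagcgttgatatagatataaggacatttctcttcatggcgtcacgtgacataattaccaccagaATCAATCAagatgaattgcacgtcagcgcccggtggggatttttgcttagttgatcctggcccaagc
In 250-base upstream windows, the table held 20 of the 39 members, with 26 windows. TGATNNAT, read on both strands, was found upstream of HOXA2, HOXB1 and HOXD11, in 3 of the 26 windows and in 6.49% of all 34941 windows. AGGTCA, the half-site of retinoic acid and other nuclear receptors, read on both strands, was found in 0 of the 26 windows and in 12.1% of all windows; the motifs do not overlap. The median window of members held 19.5 CG dinucleotides, against 11 over all windows. The window of HOXD1 held 31, that of HOXD11 held 23, and those of the 2 starts of HOXA10 held 24 (the one shown) and 19. A match is only a run of letters, and binding or methylation was not measured.

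BJ cells carried a posterior HOX pattern led by 1 gene. A member was counted as a HOX gene of BJ at a mean level of 1 or more and detection in at least 10% of BJ cells, and 10 members met this: HOXA7, HOXA9, HOXA10, HOXA11, HOXA13, HOXB2, HOXC10, HOXC11, HOXD9 and HOXD11. HOXA7 is central and HOXB2 anterior, and the other 8 are posterior. The posterior members made 89.7% of the summed HOX level of 113 in BJ cells, the central members 7.07% and the anterior members 3.26%. HOXA10, which patterns the uterus and the lower spine, had a mean level of 65.1, a median cell of 28.4 and a highest cell of 480. It was detected in 82 of 92 BJ cells (89.1%, 95% interval 80.9 to 94.7%). HOXA11, its neighbour with roles in the forearm, kidney and uterus, followed at 11.2, but 1 cell at 406 gave 39.4% of that and the mean without it was 6.85. The other 8 HOX genes of BJ averaged between 1.73 (HOXC11) and 5.11 (HOXA13, a gene of the hand, foot and genital tubercle). HOXD9 was low but frequent, at a mean level of 4.47 in 49 of 92 cells (53.3%, 42.6 to 63.7%). The median BJ cell had 4 members detected, with quartiles of 3 and 6.

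**Figure D1:**
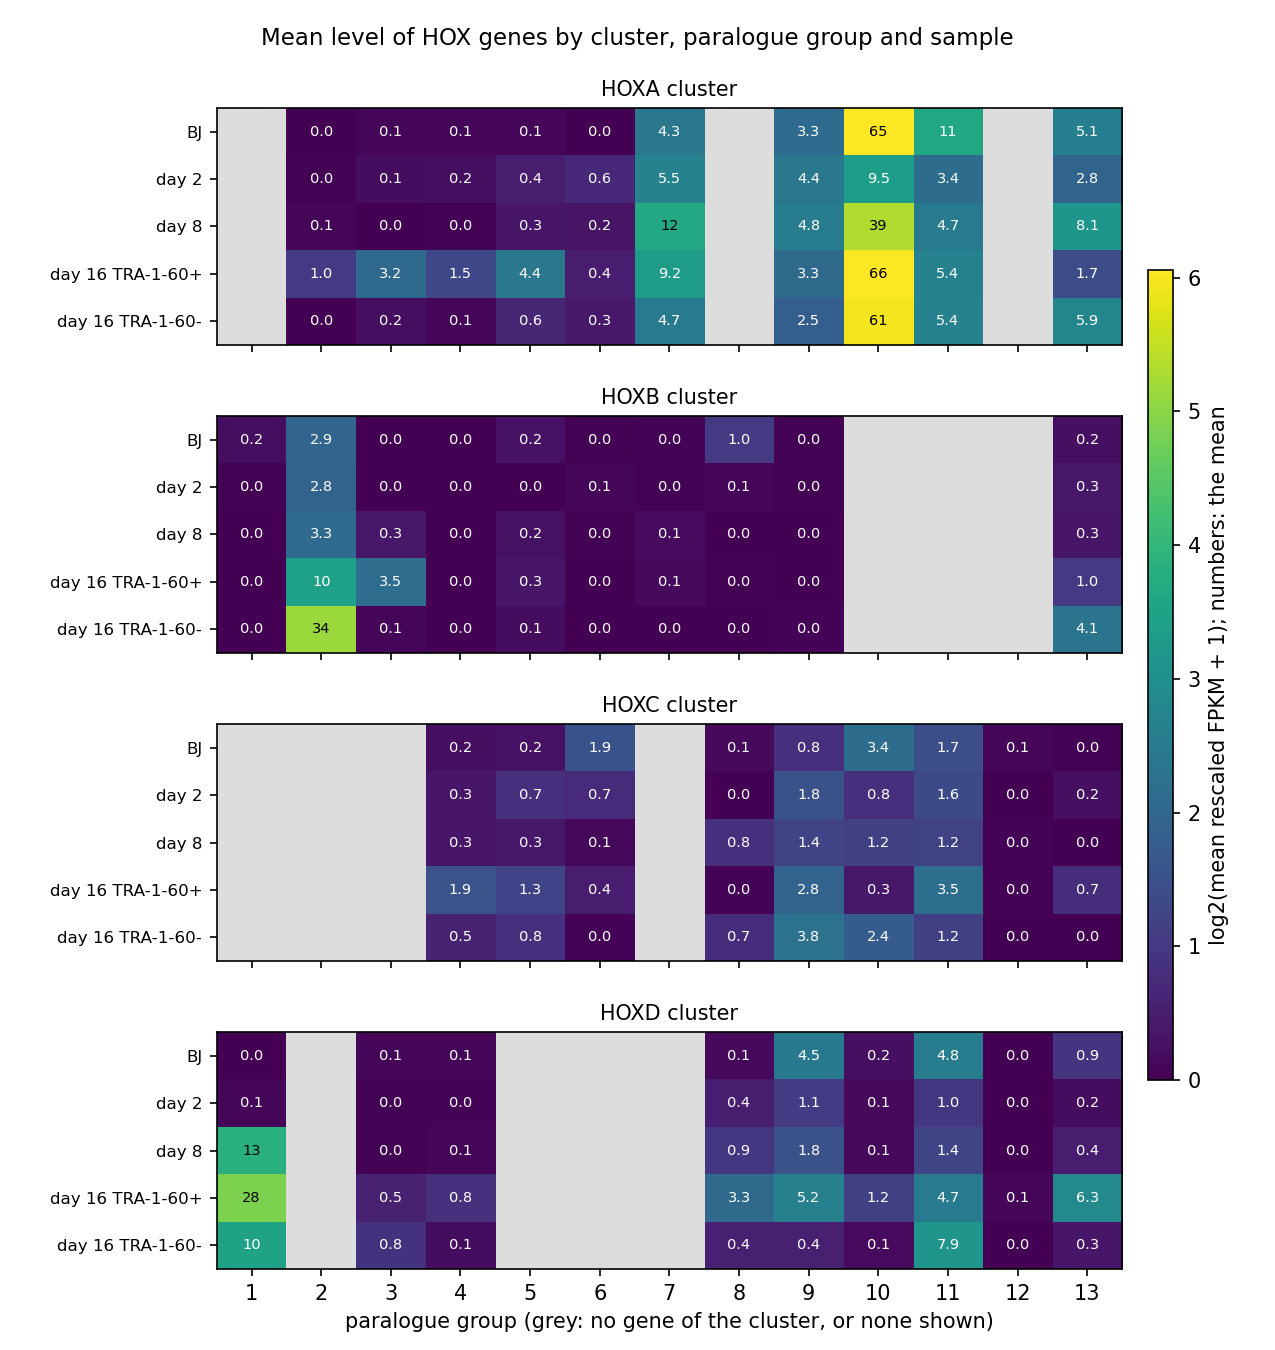
Mean level of HOX genes by cluster (panels), paralogue group (columns) and group of cells (rows); colour is log2(mean rescaled FPKM + 1), the number is the mean level, and grey marks positions where the cluster has no gene or none is shown. HOXA10 is at 9.5 at day 2 against 65 in BJ cells, HOXD1 at 28 among positive cells and HOXB2 at 34 among negative cells.

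At day 2, 5 of the 8 posterior HOX genes of BJ cells were lower, HOXA10 most of all, and HOXA9, HOXA13 and HOXC11 were within 2-fold. In this and the following comparisons, the ratio is log2 of (mean level + 1) over (mean level + 1), which understates the change of low genes. A gene is measured at a mean level of 1 or more in either group, and called at 2-fold where the mean over cells of log2(level + 1) moves the same way. A member near 0 in one group and measured through the other lies close to a call by construction, so the counts are descriptions. HOXA10 had a mean level of 9.50 in day 2 cells and 65.1 in BJ cells, a log2 ratio of -2.66. It was detected in 34 of 96 day 2 cells (35.4%, 25.9 to 45.8%), its median day 2 cell was at 0 and its highest at 161. The shares of day 2 and BJ cells do not overlap in their intervals. By the 2-fold rule 5 of the 10 HOX genes of BJ were lost at day 2, HOXA10, HOXA11, HOXC10, HOXD9 and HOXD11, where 11.5% of all genes of BJ were lost. HOXA7, HOXA9, HOXA13, HOXB2 and HOXC11 were kept within 2-fold. By the difference of mean log2(level + 1), HOXA10 alone was lost, 1 of the 10. HOXA11 had a mean level of 3.44 at day 2 and 11.2 in BJ cells; it was detected in 25% of day 2 cells and 33.7% of BJ cells, and 1 day 2 cell at 200 gave 60.6% of its sum. HOXD9 had a mean level of 1.12 at day 2 and 4.47 in BJ cells, HOXD11 of 0.961 and 4.81, and HOXC10 of 0.755 and 3.38. For HOXD11, 1 BJ cell gave 34.2% of the BJ sum. It was detected in 16.3% of BJ cells (9.42 to 25.5%) and 6.25% of day 2 cells (2.33 to 13.1%), intervals that overlap.

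By these values no HOX gene absent from the BJ pattern was gained at day 2, though with FPKM as deposited 1 was gained and 2 members were at least 2-fold higher. Of 13 measured members 0 were at least 2-fold higher than in BJ cells, against 12.2% of all measured genes, and 5 were lower, against 12.1%. The median log2 ratio was -0.77 over these members and -0.02 over all measured genes. Of the 3 members measured at day 2 that were not HOX genes of BJ, 0 were gained, where 37.8% of such genes were gained overall. The summed HOX level was 39.8 at day 2 and 113 in BJ cells. Without HOXA10 the sums were 30.3 and 47.9.

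By day 8 HOXA10 stood between its day 2 and BJ levels, HOXA7 was above its BJ level and HOXD1 was present in part of the cells. HOXA10 had a mean level of 39.2 at day 8, was detected in 72 of 92 cells (78.3%, 68.4 to 86.2%), and had a median cell of 21.3. Its log2 ratio was 1.94 against day 2 and -0.72 against BJ cells, so by the 2-fold rule it was kept at day 8. HOXA7, a central trunk gene, had a mean level of 11.6 and was detected in 43 of 92 day 8 cells (46.7%, 36.3 to 57.4%), against 4.29 and 23 of 92 BJ cells (25%, 16.6 to 35.1%). HOXD1, an anterior gene of the hindbrain and somites that is induced by retinoic acid, had a mean level of 0.0113 in BJ cells, 0.0793 at day 2 and 13.5 at day 8. It was detected in 1 of 92 BJ cells, 4 of 96 day 2 cells and 19 of 92 day 8 cells (20.7%, 12.9 to 30.4%), with a highest day 8 cell of 368. HOXA13 was at 8.11 at day 8 and 2.84 at day 2.

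Against day 2, 3 of 12 measured members were higher at day 8 (HOXA10, HOXA13 and HOXD1) and 0 were lower, where 13% of all measured genes were higher and 12.5% lower. The median log2 ratio was 0.35 over the members and 0.06 over all genes. Against BJ cells, 2 of 14 measured members were higher (HOXA7 and HOXD1) and 3 were lower (HOXA11, HOXC6 and HOXD11), where 15.2% of genes were higher and 15% lower. The share of members called there is close to that of all genes. The members' median log2 ratio was -0.50, against 0.04 over all genes. Of the 10 HOX genes of BJ, 2 were lost at day 8 (HOXA11 and HOXD11), 7 were kept and HOXA7 was raised, where 14.7% of all genes of BJ were lost. HOXA11 was at 4.72 at day 8 and 11.2 in BJ cells, and was detected in 32.6% and 33.7% of them. Without the highest cell of each group its log2 ratio was -0.61, short of a call. Summed with its antisense record, the ratio was 0.54. Of 4 members measured at day 8 that were not HOX genes of BJ, only HOXD1 was gained, where 44.1% of such genes were gained. HOXD9 was detected in 55 of 92 day 8 cells (59.8%, 49 to 69.9%), an interval that overlaps that of BJ cells, while its mean level was 1.84 at day 8 and 4.47 in BJ cells. Its highest day 8 cell stood at 20.0, against 102 in BJ cells.

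**Figure D2:**
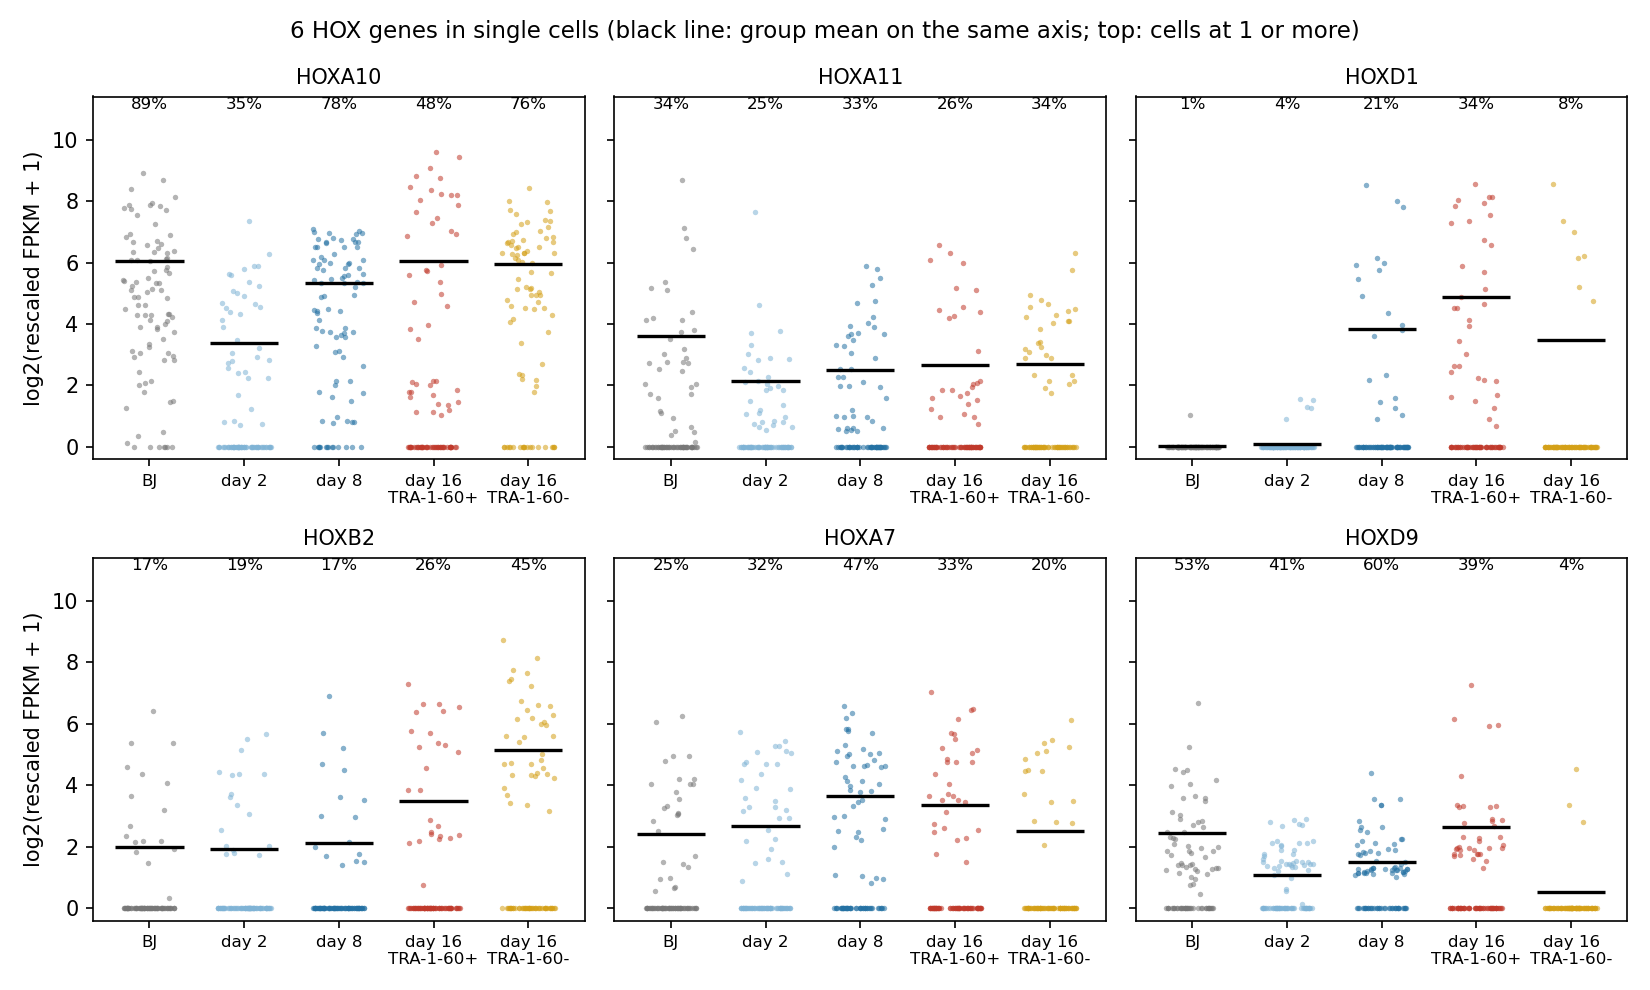
Levels of 6 HOX genes in single cells (points, log2(rescaled FPKM + 1)) of the 5 groups, with the group mean as a black line on the same axis and the share of cells at a level of 1 or more above each column. HOXA10 has nearly the same mean in the positive fraction and in BJ cells, but 48% of positive cells and 89% of BJ cells detect it; HOXD1 is high in some positive cells and at 0 in most.

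In the positive fraction of day 16, anterior HOX genes stood beside HOXA10, and the pattern was uneven from cell to cell. HOXD1 had a mean level of 28.2 in positive cells and 10.2 in negative cells, and was detected in 32 of 95 (33.7%, 24.3 to 44.1%) and 7 of 85 (8.24%, 3.38 to 16.2%). In the negative fraction 1 cell at 377 gave 43.3% of the HOXD1 sum, and the mean without it was 5.87. HOXA3 and HOXB3, both genes of the neck and pharyngeal arches, had mean levels of 3.23 and 3.48 in positive cells and at most 0.314 in any other group. They were detected in 25 of 95 (26.3%) and 22 of 95 (23.2%) positive cells. HOXB3 was detected in 0 of 92 BJ cells (0 to 3.93%, counting error only).

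HOXA10 in the positive fraction had the same mean as in BJ cells but a different spread. Its mean level was 65.5 in positive cells, 60.6 in negative cells and 65.1 in BJ cells, and by the 2-fold rule on means it was kept. It was however detected in 46 of 95 positive cells (48.4%, 38 to 58.9%), against 65 of 85 negative cells (76.5%, 66 to 85%) and 89.1% of BJ cells. The highest positive cell was at 780 and the upper quartile at 28, against 342 and 93.7 in negative cells and 480 and 79.7 in BJ cells. The mean of log2(level + 1) differed by -2.19 in positive over BJ cells and by -1.91 in positive over negative cells, so the scale decides whether HOXA10 counts as kept there. Among positive cells with at least 4000 genes, 58.7% detected it. At the HOXA9 and HOXA10 locus reads are divided among overlapping transcripts, including the HOXA10-HOXA9 readthrough and HOXA10-AS, so single values are uncertain. The summed records gave 84.1 in positive, 67.9 in negative and 78.6 in BJ cells, detected in 55.8%, 84.7% and 93.5% of them.

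Other posterior genes of BJ cells went different ways in the positive fraction. HOXA13 was lost, with a mean level of 1.66 in 6 of 95 positive cells (6.32%, 2.35 to 13.2%), against 5.11 in 32 of 92 BJ cells (34.8%, 25.1 to 45.4%). HOXC10, a lumbar and hindlimb gene, was lost at 0.311, against 3.38 in BJ cells, where 1 cell gave 34.2% of its sum. It was detected in 5.26% of positive cells (1.73 to 11.9%) and 17.4% of BJ cells (10.3 to 26.7%), intervals that overlap. HOXD9 was at 5.25 in positive cells and 4.47 in BJ cells, and HOXD11, a gene of the forearm, at 4.71 and 4.81. Both had been lost at day 2, so they counted as regained. They were 2 of the 5 members lost at day 2 or day 8, where 20.6% of such genes were regained. By the difference of mean log2(level + 1), 0 members were regained. HOXD9 was detected in 37 of 95 positive cells (38.9%, 29.1 to 49.5%), fewer than at day 8, and 1 cell gave 30.4% of its sum. HOXB2 was raised, at 10.1 in positive cells and 2.94 in BJ cells. In all, 2 of 10 HOX genes of BJ were lost, where 15% of all genes of BJ were lost, 7 were kept and 1 was raised.

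Members absent from the BJ pattern that were gained in the positive fraction included HOXA2, HOXA3, HOXA4, HOXA5, HOXB3, HOXC4, HOXC9, HOXD1, HOXD8 and HOXD13. In all, 11 of 16 other members measured there were gained, where 62.8% of such genes were gained, so the number gained is close to the background. The smaller ones rest on few cells: without the highest cell HOXA2 averaged 0.274 and HOXA4 0.361. HOXA5, a lung and neck gene, was at 4.39 in 12 of 95 positive cells. HOXD13, the most posterior HOXD gene and one of the digits, was at 6.27 in 21 of 95 positive cells (22.1%, 14.2 to 31.8%), against 0.280 in 2 of 85 negative cells and 0.911 in 5 of 92 BJ cells. HOXC9 was detected about as often in positive cells (13.7%) as in BJ cells (14.1%), and 1 positive cell gave 49% of its sum. The sequence of HOXD1 shown above overlaps the start of its antisense transcript HAGLR, which was at 2.69 in positive cells and 0.0445 or less in BJ and day 2 cells.

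The negative fraction held 8 of the 10 HOX genes of BJ within 2-fold, the exceptions being HOXB2 and HOXD9. Of all genes of BJ 12.4% were lost there, and the share held within 2-fold was not computed. The median log2 ratio of fibroblast markers in negative cells was 0.87 over BJ cells and 2.68 over day 8 cells. At day 8 the median of these markers over BJ cells was -1.66. HOXB2, a gene of hindbrain rhombomeres, had a mean level between 2.78 and 3.31 in BJ, day 2 and day 8 cells, 10.1 in positive cells and 34.2 in negative cells. It was detected in 25 of 95 positive cells (26.3%, 17.8 to 36.4%), 38 of 85 negative cells (44.7%, 33.9 to 55.9%) and 16 of 92 BJ cells (17.4%, 10.3 to 26.7%). Its log2 ratio was 3.16 in negative over BJ cells and -1.66 in positive over negative cells. HOXD9 was lost, at 0.440 in 3 of 85 negative cells (3.53%, 0.734 to 9.97%), against 5.25 in positive cells and 4.47 in BJ cells. Its neighbour HOXD11 was at 7.86 in 18 of 85 negative cells (21.2%, 13.1 to 31.4%). HOXB13, a gene of the prostate and tail end, was at 4.05 in 14 of 85 negative cells, against 1.03 in positive cells and 0.197 in BJ cells.

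By the 2-fold rule only HOXD9 was lost in the negative fraction, 1 of the 10 HOX genes of BJ, where 12.4% of all genes of BJ were lost. HOXB2 was raised. Of 5 members lost at day 2 or day 8, only HOXD11 was regained, where 28.9% of such genes were regained. By the difference of mean log2(level + 1), 0 members were regained. Of 6 other members measured, 3 were gained, HOXB13 and HOXD1 among them, where 54.1% of such genes were gained. Against BJ cells 4 of 16 measured members were higher (31.4% of all genes) and 3 were lower (13%), with a median log2 ratio of 0.00, against 0.51 over all genes. Those lower were HOXB8, HOXC6 and HOXD9; HOXB8 rested in BJ cells on 1 cell with 85.2% of its sum. Against day 8, 4 of 14 were higher (HOXB2, HOXB13, HOXC9 and HOXD11; 28.4% of all genes) and HOXA7 alone was lower (10.6%), with a median of 0.39 against 0.49 over all genes.

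**Figure D3:**
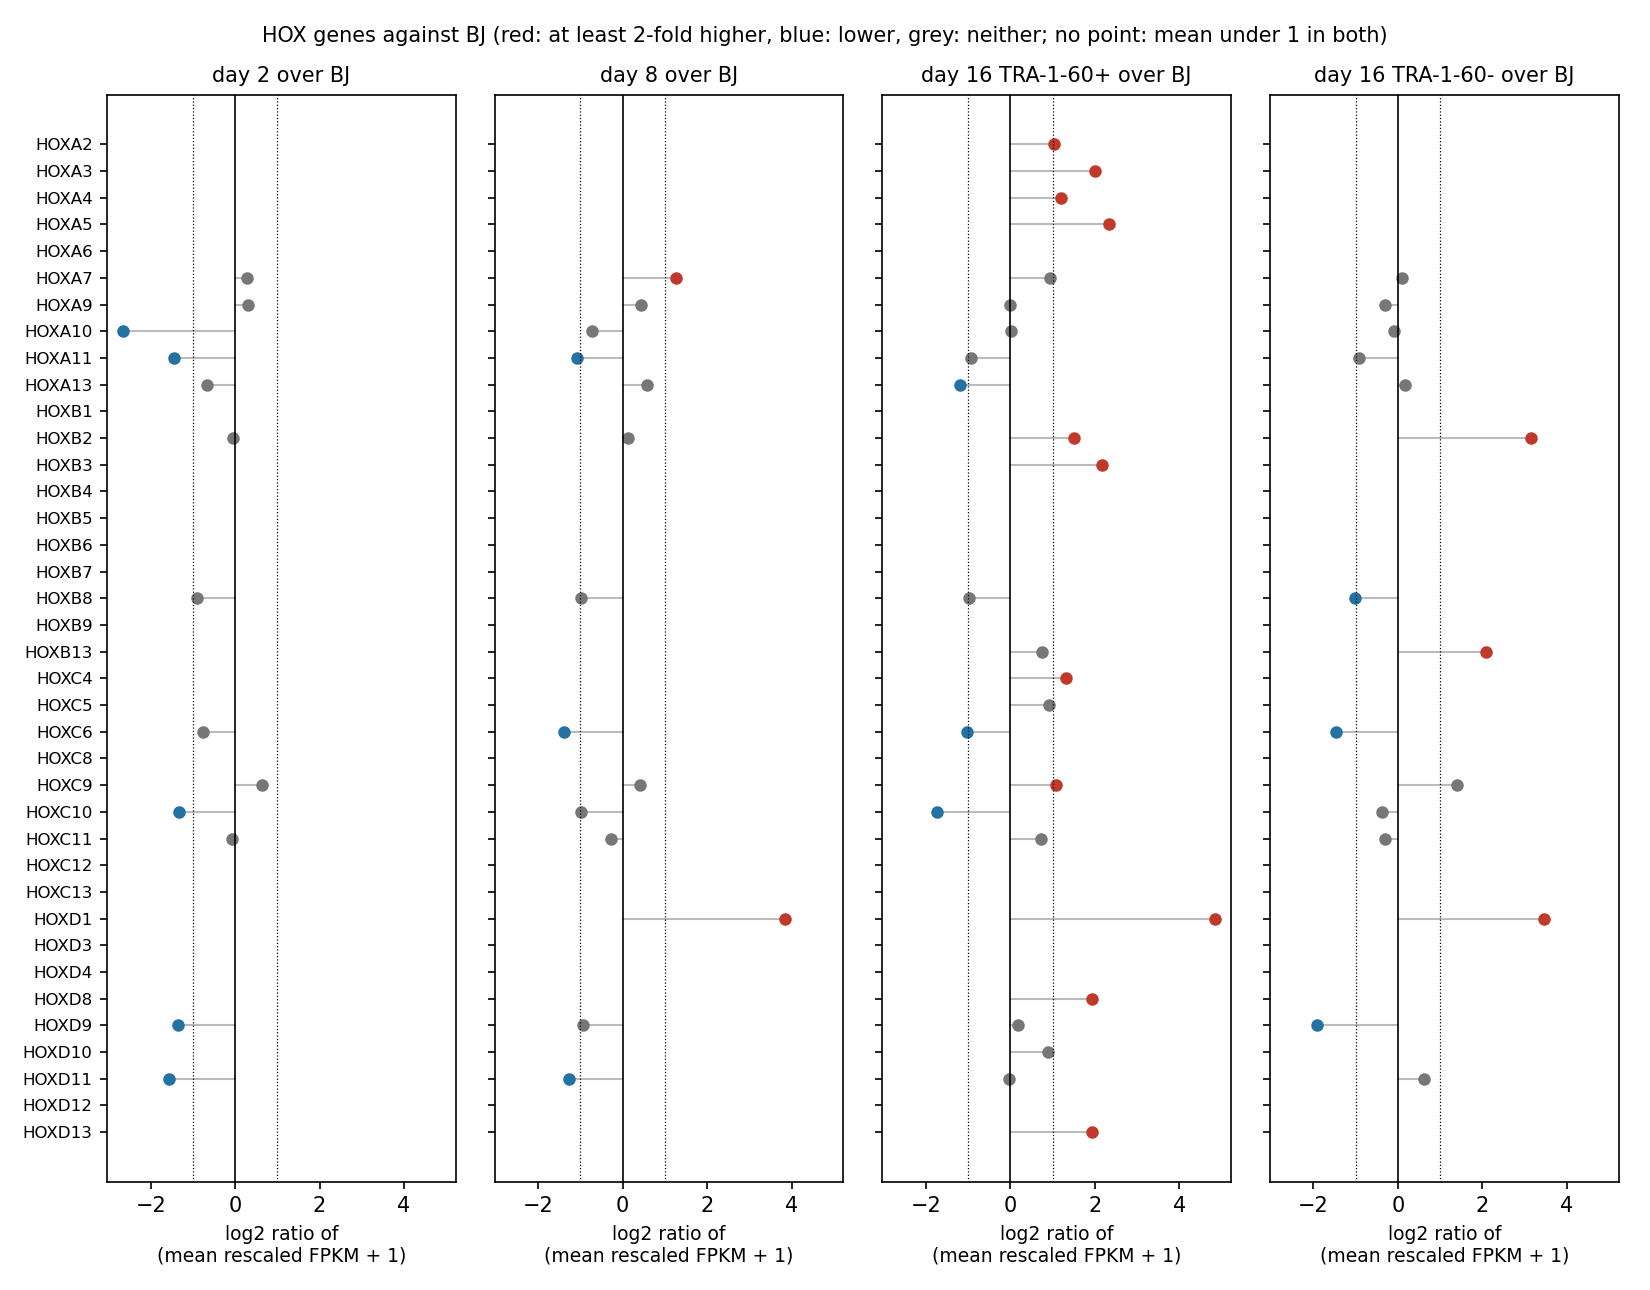
Log2 ratio of (mean rescaled FPKM + 1) of measured HOX genes in day 2 cells, day 8 cells, the positive and the negative fraction over BJ cells, with dotted lines at 2-fold. Red points were called higher, blue points lower and grey points neither, HOXC9 in the negative fraction included, whose mean of log2 values did not move the same way; HOXA10 is at -2.66 at day 2 and near 0 in both fractions, and HOXD1 is at 4.85 in the positive fraction.

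Between the fractions of the same day, HOXD1, HOXA3 and HOXA5 were higher in positive cells and HOXB2 was higher in negative cells. HOXA2 and HOXA4 were also called higher, but 1 positive cell each gave 74.1% and 75.8% of their sums. Without that cell their means were 0.274 and 0.361. Of 24 measured members, 11 were at least 2-fold higher in positive than in negative cells, where 24.8% of all measured genes were, among them HOXA2, HOXA3, HOXA4, HOXA5, HOXB3, HOXC11, HOXD1, HOXD8, HOXD9 and HOXD13. HOXA13, HOXB2, HOXB13 and HOXC10 were lower, 4 of 24, where 21.4% of genes were. The median log2 ratio was 0.96 over the members and 0.06 over all genes. By the difference of mean log2(level + 1), 2 members passed 2-fold as higher, HOXD1 among them, and 2 as lower (HOXA10 and HOXB2). Against day 8, 14 of 24 measured members were higher in positive cells, or 9 without the highest cell of each gene and group, where 30.3% of genes were, and HOXA13 alone was lower, where 11.6% were; the medians were 1.02 and 0.49. Against BJ cells, 12 of 26 measured members were higher, where 34.4% of genes were, and 3 were lower (HOXA13, HOXC6 and HOXC10), where 13.6% were; the medians were 0.93 and 0.55. The comparisons of 1 group with several others share that group's cells.

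By position, the posterior sum of means at day 16 was near its BJ level, and an anterior sum was added. Posterior members summed to 101 in BJ, 27.2 in day 2 and 64.7 in day 8 cells, 102 in positive and 94.5 in negative cells. HOXA10 alone held 65.5 of this sum in positive cells and 65.1 in BJ cells. It was detected in 48.4% of positive and 89.1% of BJ cells, so the sum does not describe a typical positive cell. Anterior members summed to 3.69 in BJ, 4.10 in day 2 and 18.2 in day 8 cells, 84.1 in positive and 48.4 in negative cells. In negative cells HOXB2 alone held 34.2 of this sum, against 10.1 in positive cells. Any anterior member was detected in 32.6% of BJ cells (23.2 to 43.2%), 44.8% at day 2, 52.2% at day 8, 84.2% of positive cells (75.3 to 90.9%) and 65.9% of negative cells (54.8 to 75.8%). Any central member was detected in 66.3% of positive and 36.5% of negative cells, and any posterior member in at least 90.5% of cells of every group. By cluster, HOXA held 62.8% of the summed level in positive and 54.7% in negative cells, against 79% in BJ cells. HOXB held 25.6% in negative cells and at most 8.40% elsewhere, and HOXD 24.5% in positive cells and 9.44% in BJ cells.

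**Figure D4:**
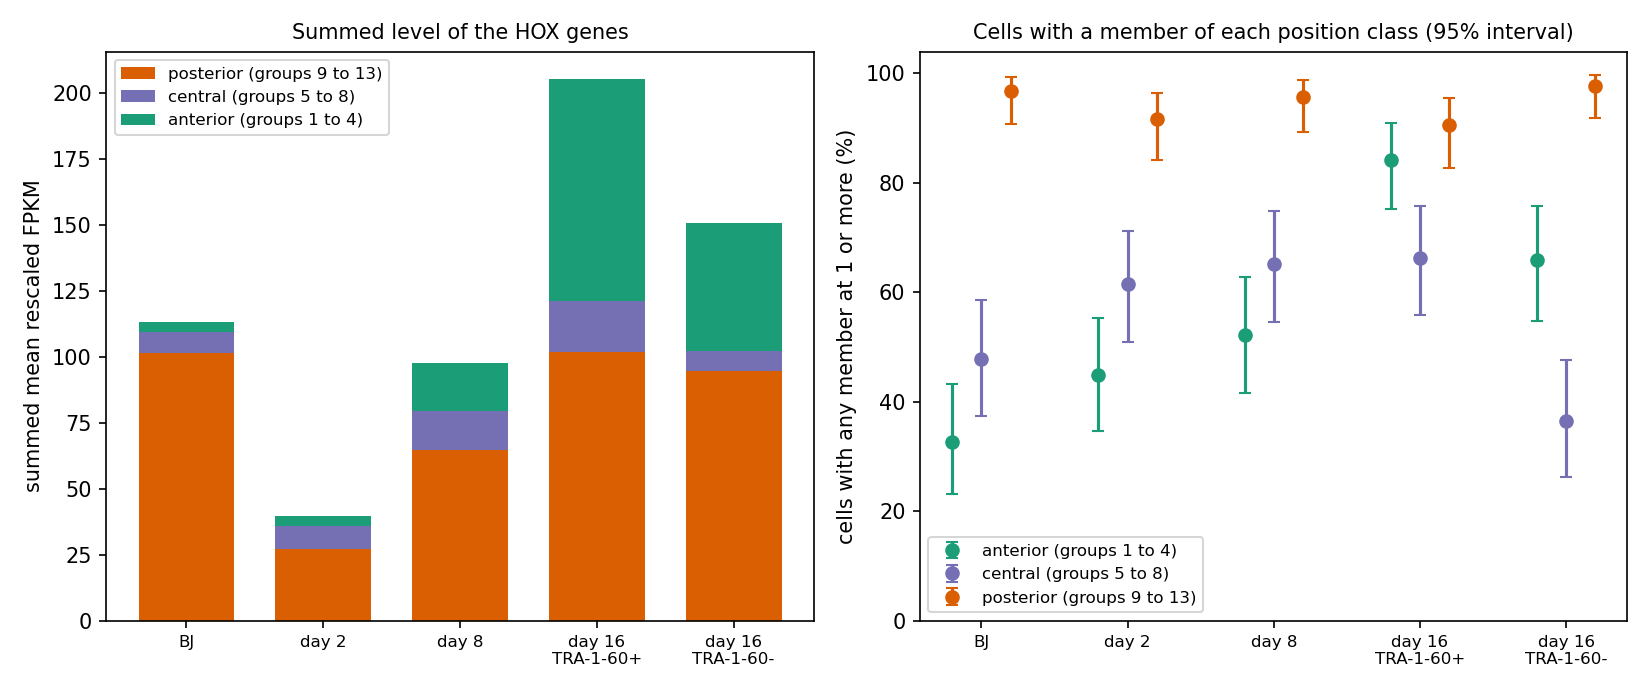
Left, summed mean level (rescaled FPKM) of posterior, central and anterior HOX genes in the 5 groups; right, share of cells with any member of each class at a level of 1 or more, with exact 95% intervals. The posterior part is 27.2 at day 2 against 101 in BJ cells, and the anterior part is 84.1 for positive and 48.4 for negative cells.

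Within the positive fraction HOXA10 and HOXD1 were carried by overlapping sets of cells. HOXD1 was more frequent beside HOXA10, in 24 of 46 cells (52.2%) against 8 of 49 without it (16.3%). HOXA10 was detected in 34 of 57 positive cells with the collagen gene COL1A2 (59.6%, 45.8 to 72.4%) and in 12 of 38 without it (31.6%, 17.5 to 48.7%). It was detected in 39 of 80 positive cells with the pluripotency factor NANOG and in 7 of 15 without it. Across positive cells, the Spearman correlation of the number of HOX members detected was 0.45 with fibroblast markers detected, 0.05 with pluripotency markers and 0.43 with all genes detected (n = 95 cells of 1 sample). The median positive cell had 5 members, the median negative cell 3, and 1 positive cell had 14; the number of genes detected moves with this count, and its part was not tested. Mesoderm markers, a sign of differentiating cells, also stood out in positive cells: their 5 genes summed to 20.0 on average, against 0.206 in negative and at most 1.27 in other cells. EOMES and MIXL1 made most of it, and 4 of the 5 were listed at 0 in every negative cell. The part of such cells in the anterior HOX levels was not tested.

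The members not yet described were low. HOXA9, a gene of the lumbar spine and of blood progenitors, was highest at day 8, and HOXB8, HOXC6 and HOXC10 were highest in BJ cells. HOXC4, HOXC5, HOXC6, HOXC11 and HOXD10 had their highest mean between 1.23 and 3.54, and HOXC4, HOXC5 and HOXC6 share transcript sequence, so reads cannot be assigned with certainty. Their summed records were 3.67 in positive and 1.32 in negative cells, against 2.27 in BJ cells. HOXC11 was the member most often detected at day 2, in 43 of 96 cells (44.8%), at a mean level of 1.58. Of the 39 members 13 stayed under a mean of 1 in every group: HOXA6, HOXB1, HOXB4, HOXB5, HOXB6, HOXB7, HOXB9, HOXC8, HOXC12, HOXC13, HOXD3, HOXD4 and HOXD12. HOXB4, a regulator of blood stem cells, was detected in 0 cells of any group. HOXB1, a paralogue of HOXD1, was at most 0.177. The highest mean lay in the positive fraction for 12 of the 20 members with a highest mean from 1 to 10. It also lay there for 3 of the 6 at 10 or more. The same count was not made over all genes. Of all measured genes, 30.3% were at least 2-fold higher in positive than in day 8 cells, and 34.4% than in BJ cells.

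Noncoding RNAs of the clusters followed their neighbours in part. HOTAIRM1, a noncoding RNA of the HOXA cluster, had a mean level of 35.8 in 32 of 95 positive cells (33.7%), and at most 3.77 in any other group. HOXA11-AS, antisense to HOXA11, was at 8.39 for BJ, 3.89 for day 2 and 24.2 for day 8 cells, 21.3 in positive and 27.5 in negative cells. The strand used in counting is not given in the sources used here, so HOXA11 and its antisense cannot be told apart. Summed, they were at 28.9 at day 8 and 19.6 in BJ cells, a log2 ratio of 0.54, whereas HOXA11 alone gave -1.09. HOTAIR, a HOXC transcript known from posterior fibroblasts, was at 0.163 in positive and 5.18 in negative cells, against 0.764 in BJ cells. Of 15 cluster RNAs listed, 8 were measured in positive against BJ cells, with 5 higher and 2 lower, where 34.4% of all genes were higher and 13.6% lower. Their median log2 ratio was 1.18, against 0.55 over all genes. The 6 microRNA genes of the clusters were listed at 0 in every kept cell.

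PBX and MEIS proteins bind DNA together with HOX proteins. Of 6 measured of 9 cofactors, 4 were at least 2-fold higher in positive than in BJ cells and 0 lower, where 34.4% of all genes were higher and 13.6% lower, with a median log2 ratio of 1.59 against 0.55 over all genes. In negative against BJ cells 1 of 6 measured cofactors was higher and 1 lower, where 31.4% of all genes were higher and 13% lower. The cofactors' median log2 ratio there was 0.46, against 0.51 over all genes. PBX3 had a mean level of 34.7 in positive, 10.7 in negative and 8.68 in BJ cells, and MEIS1 was at 26.5, 8.12 and 4.74. MEIS2 was at 6.07 at day 2 and 52.1 in BJ cells, a log2 ratio of -2.91 beside -2.66 for HOXA10. Among 20 regulators of the clusters, 5 of 17 measured were higher in negative than in BJ cells and 1 lower, where 31.4% of all genes were higher and 13% lower, so the share is close to the background. In positive against BJ cells 9 of 18 measured were higher and 0 lower, where 34.4% of all genes were higher and 13.6% lower. The median log2 ratio of these 18 was 0.92, against 0.55 over all genes. Genes of the retinoic acid pathway were among the regulators. CRABP2, a retinoic acid carrier, was at 15.1 for BJ, 62.7 for day 2 and 249 for day 8 cells, 67.9 in positive and 713 in negative cells. ALDH1A2, which makes retinoic acid, was at 0.0398 or less in BJ and day 2 cells, 13.5 at day 8, 3.50 in positive and 34.4 in negative cells. The receptor RARB, itself a retinoic acid target, was at 28.1 in positive and 48.6 in negative cells, against 7.17 in BJ cells. In day 8 cells with ALDH1A2, 11 of 27 detected HOXD1 (40.7%, 22.4 to 61.2%), against 8 of 65 without it (12.3%, 5.47 to 22.8%). For RARB the shares were 14 of 46 with it (30.4%) and 5 of 46 without it (10.9%). For CRABP2 they went the other way, 17 of 86 with it (19.8%) and 2 of 6 without it (33.3%). In the negative fraction the shares with HOXD1 were 2 of 29 with ALDH1A2 (6.90%) and 5 of 56 without it (8.93%). In the positive fraction they were 2 of 5 and 30 of 90. A link of retinoic acid with HOXD1 was not tested. The Polycomb enzyme EZH2 was at 35.7 in positive and 5.43 in negative cells, against 14.2 in BJ cells.

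Other positional factors known from fibroblasts are set beside the HOX genes here. Of 21 measured of 30, 10 were at least 2-fold lower and 5 higher in positive than in BJ cells, where 13.6% of all genes were lower and 34.4% higher. Their median log2 ratio was -0.85, against 0.93 over the HOX genes measured and 0.55 over all genes. FOXF1, a gene of trunk mesenchyme, was at 0.0836 in positive and 3.96 in negative cells, against 25.7 in BJ cells. TWIST1 was at 1.39 in positive, 8.65 in negative and 55.9 in BJ cells, and TBX3, a limb gene, at 7.67, 30.9 and 47.7. The factors named here all had lower means in both fractions than in BJ cells, and none of the higher ones is named. In the negative fraction 5 of 20 measured were higher and 4 lower, where 31.4% of all genes were higher and 13% lower, and their median was -0.10, against 0.51 over all genes. Of genes flanking the clusters, in negative against BJ cells, 2 of 3 measured flanking HOXA were higher, 3 of 5 flanking HOXB, where HOXB2 is, 2 of 7 flanking HOXC and 2 of 4 flanking HOXD, beside 31.4% of all genes. Of those flanking HOXB and HOXC, 1 each was lower, and 0 of those flanking HOXA and HOXD.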

How the data were processed

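Single cells were taken on Fluidigm C1 chips and made into Nextera XT libraries, per the labels' protocols. The authors deposited FPKM, 1 table of 27021 genes per group; per the submitters' processing notes STAR, Cuffnorm and hg19 were used, with versions, strand and annotation not given in the sources used here. Columns were grouped by their labels, and 0 were left unused. FPKM were rescaled to 1000000 per cell. Cells with at least 2000 genes at 1 or more and ACTB or GAPDH detected were kept, 460 of 480. Doublets were not called. Log2 ratios used a pseudocount of 1, and calls a 2-fold threshold with a minimum mean of 1. A gene regained was lost at day 2 or day 8, and at day 16 within 2-fold of BJ and at least 2-fold above day 8. As each group is 1 sample, no test was run. Depth per cell is unknown. The scripts were tested on simulated data, scored only for genes with a mean of 10 or more in BJ cells. Calls of lower members were not covered by it. Members whose mean reached 10 anywhere are given in full unless not reported here, others by their highest group, and those under 1 by name; further examples were chosen after their values were seen. The HOX genes, lists, comparisons and alternatives were chosen with earlier results of these data known. Alternatives were 3 scalings, pseudocounts of 0.1 and 10, filters on genes and cells, and other thresholds. Python 3.11.15, numpy 2.4.6, pandas 2.3.3, scipy 1.17.1 and matplotlib 3.10.9 were used.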

Additional observations from a re-analysis of the deposited data

How the results depend on the processing

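No paired analysis was possible because no comparison has a test and the numbers in the labels only name cells. Counts of higher and lower members were recomputed under 12 alternatives, and counts of members lost, gained or regained under 6. Of the counts of members, 164 stayed within 1.5 times their value and 94 moved. With detection in 25% of BJ cells required of a HOX gene of BJ the counts that moved were 6 of BJ in all, 1 lost in positive, 3 lost in day 2, 1 lost in day 8, 0 regained in negative and 1 regained in positive. With a 4-fold call the counts that moved were 4 gained in positive, 0 lost in negative, 0 lost in positive, 1 lost in day 2, 0 lost in day 8, 0 regained in negative and 0 regained in positive. With a mean of 10 required of a HOX gene of BJ the counts that moved were 2 gained in day 8, 2 of BJ in all, 0 lost in negative, 0 lost in positive, 2 lost in day 2, 1 lost in day 8, 0 regained in negative and 0 regained in positive. With FPKM as deposited the counts that moved were 1 gained in day 2, 1 lost in day 8, 0 regained in positive, 9 higher in positive against day 8, 2 higher in day 2 against BJ, 2 lower in negative against day 8 and 2 lower in day 8 against day 2. With at least 4000 genes per cell the counts that moved were 1 lower in positive against BJ. With the difference of mean log2 values the counts that moved were 0 gained in negative, 2 gained in positive, 0 gained in day 8, 1 lost in positive, 1 lost in day 2, 0 lost in day 8, 0 regained in negative, 0 regained in positive, 1 higher in negative against BJ, 1 higher in negative against day 8, 2 higher in positive against BJ, 2 higher in positive against negative, 1 higher in positive against day 8, 1 higher in day 8 against BJ, 1 higher in day 8 against day 2, 1 lower in negative against BJ, 1 lower in positive against BJ, 2 lower in positive against negative, 1 lower in day 2 against BJ and 0 lower in day 8 against BJ. With scaling to 10 housekeeping genes the counts that moved were 3 gained in day 8, 1 lost in positive, 1 lost in day 8, 4 higher in day 8 against BJ, 5 higher in day 8 against day 2, 3 lower in negative against day 8, 1 lower in positive against BJ and 2 lower in positive against day 8. With a minimum mean of 10 the counts that moved were 2 higher in negative against BJ, 1 higher in negative against day 8, 3 higher in positive against BJ, 2 higher in positive against negative, 3 higher in positive against day 8, 0 lower in negative against BJ, 0 lower in positive against BJ, 1 lower in positive against negative, 0 lower in positive against day 8, 2 lower in day 2 against BJ and 1 lower in day 8 against BJ. With a pseudocount of 0.1 the counts that moved were 1 higher in day 2 against BJ, 2 lower in negative against day 8, 5 lower in positive against BJ, 2 lower in positive against day 8 and 6 lower in day 8 against BJ. With a pseudocount of 10 the counts that moved were 2 higher in negative against BJ, 1 higher in negative against day 8, 2 higher in positive against BJ, 1 higher in positive against negative, 1 higher in positive against day 8, 1 higher in day 8 against BJ, 0 lower in negative against BJ, 0 lower in negative against day 8, 0 lower in positive against BJ, 1 lower in positive against negative, 0 lower in positive against day 8, 1 lower in day 2 against BJ and 0 lower in day 8 against BJ. With totals without small RNA, mitochondrial and ribosomal protein genes the counts that moved were 2 lower in negative against day 8, 5 lower in positive against BJ and 5 lower in day 8 against BJ. Without the 5% of cells with most genes the counts that moved were 6 lower in day 8 against BJ. Without the highest cell per gene and group the counts that moved were 9 higher in positive against day 8, 1 lower in negative against BJ, 2 lower in negative against day 8 and 1 lower in day 8 against BJ. With summed locus records, chosen after seeing the data, the log2 ratio of HOXA11 in day 8 over BJ cells turned to 0.54. Housekeeping scaling gave a median of all genes of 1.01 in positive over BJ cells, against 0.55 in the report. The cause of these shifts was not tested. Counts were smaller with a larger pseudocount, minimum mean of measured genes or fold, which by construction leave fewer low genes to call; most members lie under a mean of 10. Depth per cell is unknown, so detection limits per cell were not computed.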
